A study of Mus musculus with 24 samples.

Results

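The matrix metalloproteinases (Mmp), the ADAMTS proteases (Adamts), the ADAMTS-like proteins (Adamtsl) and the tissue inhibitors of metalloproteinases (Timp) were followed in RNA from mouse intrahepatic cholangiocytes, the epithelial cells that line the bile ducts inside the liver. The members were all protein-coding genes whose symbol begins with one of these 4 names and a digit, and there were 50 of them among 21734 protein-coding genes and 49315 genes in all. They were 22 Mmp, 4 Timp, 19 Adamts and 5 Adamtsl genes.

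The 24 libraries fell into 8 groups of 3. Males and females each gave dnTGFB mice treated with secretin, untreated dnTGFB mice, WT mice treated with secretin, and untreated WT mice. The dnTGFB transgene encodes a dominant-negative form of the type II receptor for TGF-β, and the mice model primary biliary cholangitis, an autoimmune disease of the small bile ducts. The sources used here do not give the promoter that drives the transgene. Secretin, a gut hormone that makes bile duct cells secrete bicarbonate, was given at 4 µg per kg per day for 8 weeks from osmotic minipumps. At death, secretin-treated mice were 40 weeks old and untreated WT mice 32 weeks, so secretin and age cannot be told apart against untreated WT mice. No age is given for untreated dnTGFB mice. Cells of 6 to 8 mice were pooled per group and each pool was sequenced in triplicate, so each p-value reflects how libraries of the same pool varied, not how mice varied. Cholangiocytes were captured with an antibody on magnetic beads.

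Metalloproteinases of the matrixin family are secreted or membrane-bound zinc enzymes that cut collagens, proteoglycans, cytokines and cell-surface proteins, and the ADAMTS enzymes cut proteoglycans, procollagens and von Willebrand factor. Most are made as inactive proenzymes, and Timps block the active site. In the injured liver these enzymes and inhibitors are known from stellate cells, macrophages and neutrophils as well as from bile duct epithelium, where matrilysin, the product of Mmp7, is a known epithelial member.

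Several members lie side by side in a cluster on chromosome 9. The promoters of those called changed in males with all libraries (calls are defined below) are shown with that of Timp4. Timp4 is an inhibitor called in males for secretin against no secretin in both genotypes. Each line gives the 120 bases before an annotated start on the gene's strand (RefSeq, GRCm38.p6), 5′ to 3′. The capitals mark the letters TGANTCA, the binding motif of the AP-1 (Fos and Jun) factors, which reads the same on both strands. The windows are chr9:7445702-7445821 for Mmp3, chr9:7347254-7347373 for a second annotated start of Mmp12, chr9:7272394-7272513 for Mmp13, chr9:7691970-7692089 for Mmp7 and, on the minus strand, chr6:115252206-115252325 for Timp4.
Mmp3: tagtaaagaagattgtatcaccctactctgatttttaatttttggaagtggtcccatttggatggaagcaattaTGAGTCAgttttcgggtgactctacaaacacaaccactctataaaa
Mmp12: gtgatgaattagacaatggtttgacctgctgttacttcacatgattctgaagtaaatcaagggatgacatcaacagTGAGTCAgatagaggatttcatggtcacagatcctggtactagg
Mmp13: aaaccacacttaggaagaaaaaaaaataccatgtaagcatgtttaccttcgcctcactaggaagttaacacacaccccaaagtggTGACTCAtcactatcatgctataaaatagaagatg
Mmp7: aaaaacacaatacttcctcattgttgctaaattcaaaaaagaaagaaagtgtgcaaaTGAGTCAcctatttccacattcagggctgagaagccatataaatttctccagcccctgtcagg
Timp4: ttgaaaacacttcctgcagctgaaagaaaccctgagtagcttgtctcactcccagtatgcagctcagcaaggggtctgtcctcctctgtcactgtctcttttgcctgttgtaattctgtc
The motif began 46 bases before the start of Mmp3, 44 before that of Mmp12, 35 before that of Mmp13 and 63 before that of Mmp7. Mmp12 and Mmp7 each had another annotated start, and the windows there, with chr9:7344277-7344396 and chr9:7692221-7692340 as their upstream bases, had no TGANTCA. In windows of 300 bases (250 before to 50 after the start), it was present in at least 1 window for 7 of the 35 members that had one, against 8.97% of all 27025 genes. The 7 members were Mmp3, Mmp7, Mmp10, Mmp12, Mmp13, Mmp1b and Mmp20, all of them in the chromosome 9 cluster. The windows of Mmp8 and Mmp27, which lie in the same cluster and are not shown, had no TGANTCA. The letters TATAAA on either strand were present for 11 of the 35 members, against 15.7% of all genes. A match is a description of these letters and not a measured binding site, and the Timp4 window had no TGANTCA.

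Total counts ranged from 1429218 in male dnTGFB library 3 to 104003184 over all libraries. Markers of bile duct epithelium were present at 1 CPM or more for 12 of 12 genes in every group, and no group had one of them at 0. Hepatocyte, endothelial and macrophage markers were also present in every group. Summed hepatocyte markers stood at 3197 to 3237 CPM in male dnTGFB secretin and at 21830, 20770 and 2918 CPM in dnTGFB libraries. They stood at 12820 to 13510 CPM in male WT secretin and at 13070, 2602 and 2572 CPM in WT libraries. The part of hepatocyte RNA in the male results was not tested. In males, 2 libraries stood apart from their groups. Male dnTGFB library 3 was shallow and held 13620 CPM of summed heart muscle markers and 5113 CPM of neuron markers, and male WT library 1 was closer to a dnTGFB library than to the other WT libraries. Mitochondrial genes took 55.1% and 55.0% of counts in male dnTGFB libraries 1 and 2, and 11.4% in library 3. They took 42.8%, 9.73% and 9.75% in WT, 19.4% to 19.5% in WT secretin and 5.31% to 5.66% in dnTGFB secretin libraries. Without the 2 libraries that stood apart, this share differed between all male groups without overlap. Its part in the male results was not tested. The male WT secretin libraries held 30.1 to 37.4 CPM of Xist, a transcript of female cells, against 0.890 to 1.45 CPM in male WT. In females, WT library 2 matched dnTGFB secretin library 1, and WT secretin library 1 matched dnTGFB secretin library 3, almost to sampling noise (chi-square per gene 1.16 and 1.42). Against the nearest library of its own group, each of these, in that order, stood at 10.6, 28.8, 62.7 and 3.97. The same measure was 40.0 for male WT library 1 and 78.4 for male dnTGFB library 3. Libraries 2 and 3 of female WT secretin, with libraries 1 and 2 of female dnTGFB, held 65020 to 82760 CPM of heart muscle markers, against 380.2 to 2902 CPM in the other 8 female libraries, and 55.1 to 98.5 CPM of the Y-linked gene Ddx3y, against 1.25 to 6.40 CPM. The counts of male calls, and the values of some male members whose call or size changed, are therefore given also without the 2 libraries that stood apart. Female values are given first of all as levels in each library. The genotype field of the labels contradicts the title for the WT secretin and untreated dnTGFB libraries, and the groups follow the titles.

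Levels below are CPM, the count scaled to a common library size, on TMM-scaled totals of the libraries of a sex, and levels of different genes are compared only per kb of exon. The members ranged from abundant to barely detected. In males, 19 had a median of at least 10 CPM, 17 lay between 1 and 10 CPM and 14 were under 1 CPM, and in females the numbers were 16, 22 and 12. Per kb, the highest male medians were 71.2 CPM for Adamts1, a protease of versican and aggrecan, 42.0 CPM for Timp2, 36.1 CPM for Mmp14, 30.0 CPM for Mmp7, 23.2 CPM for Timp1 and 21.5 CPM for Timp3. In females the order per kb began with Mmp7 at 76.4 CPM, Timp2 at 44.5 CPM, Mmp14 at 31.5 CPM and Adamts1 at 20.7 CPM. The ranges over libraries overlapped between neighbours in both orders, for example 11.96 to 79.8 CPM per kb for Adamts1 and 30.5 to 69.5 CPM per kb for Timp2 in males. Too few counts for a test were found for Mmp1b, Mmp20 and Mmp21 in either sex and for Mmp10 and Adamts19 in males, which left 45 members in males and 47 in females.

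**Figure D1:**
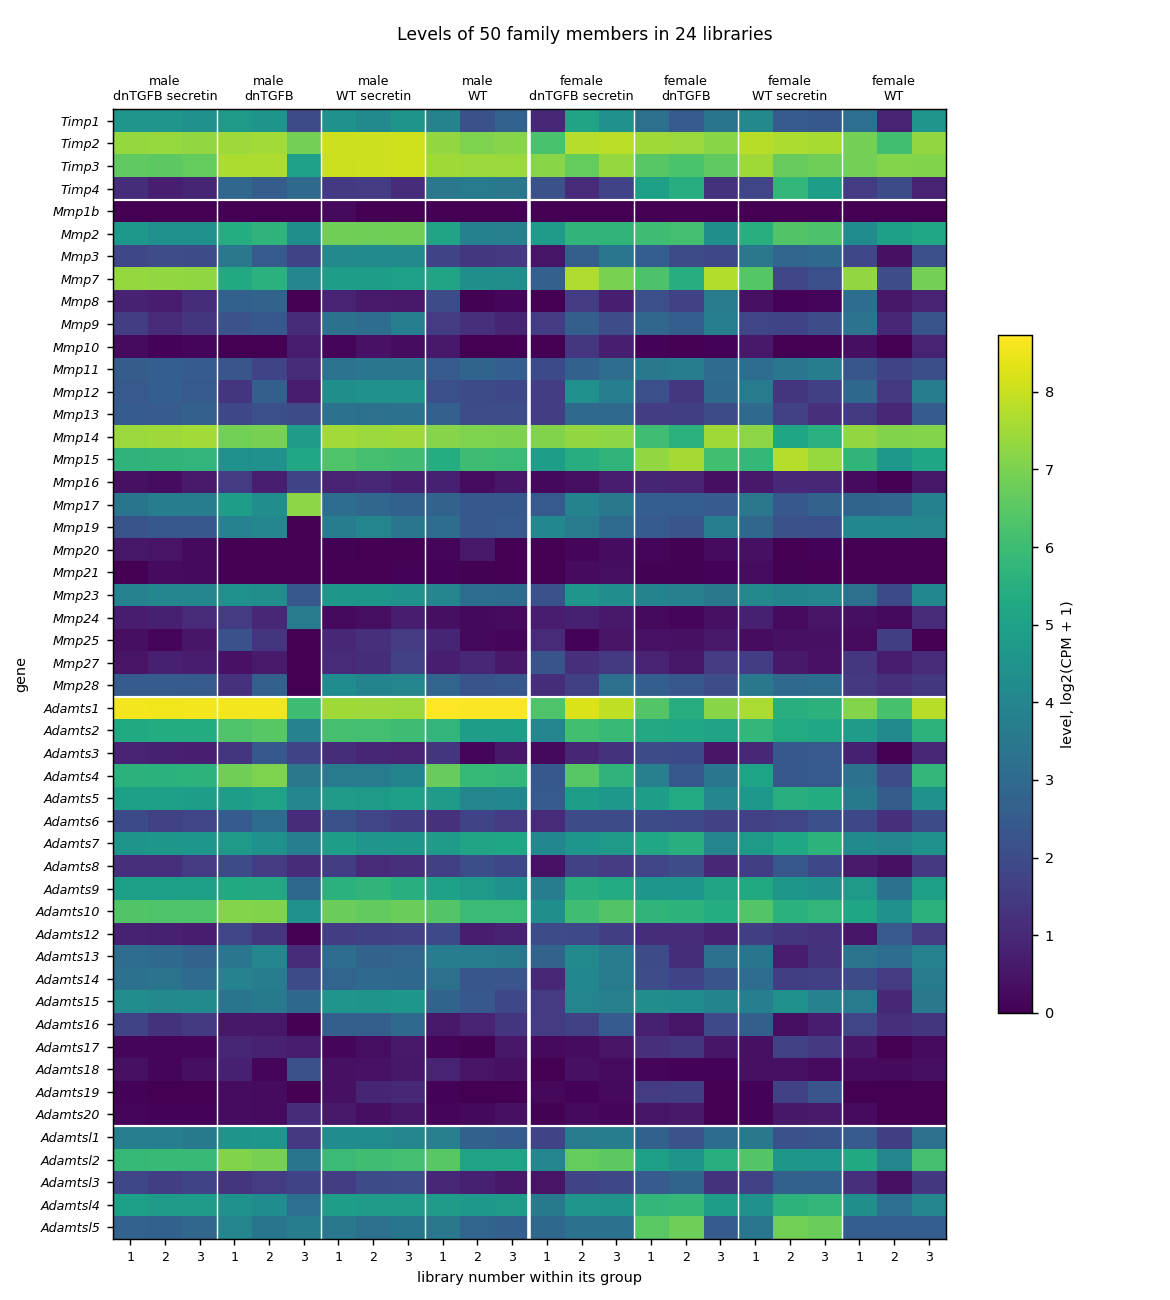
Level of each of the 50 members (rows, grouped as Timp, Mmp, Adamts and Adamtsl) in each of the 24 libraries (columns, by sex and group), as log2(CPM + 1). Within males the libraries of most groups look alike except dnTGFB library 3, and within females dnTGFB libraries 1 and 2 resemble WT secretin libraries 2 and 3.

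In males, secretin was accompanied by different changes in the 2 genotypes. In WT mice there was more Mmp2, Mmp3, Mmp9, Mmp12, Mmp13, Adamts15, Adamts16, Adamtsl3 and Timp2 RNA and less Timp4 and Adamts4 RNA. In dnTGFB mice, secretin-treated cells had more Mmp7, Mmp15, Adamts15, Adamts16 and Adamtsl4 RNA and less Timp4, Mmp16, Mmp17, Mmp25, Adamts17 and Adamtsl5 RNA. A call here is a Benjamini-Hochberg adjusted p under 0.05 in edgeR's quasi-likelihood test over all 18777 genes tested in males. In WT secretin against WT, 9 of the 45 members tested rose and 2 fell, against 3.55% of all genes that rose and 2.67% that fell, and the median log2 change was 0.63 over the members and 0.00 over all genes. In dnTGFB secretin against dnTGFB, 5 members rose and 6 fell, against 10.1% and 12.4% of all genes, with medians of -0.51 and -0.05. These shares are close to the background in dnTGFB mice. In dnTGFB against WT, 5 rose and 1 fell, against 8.55% and 8.46% of all genes, with medians of 0.60 and 0.01. In dnTGFB secretin against WT, 3 rose and 1 fell, against 1.88% and 2.46% of all genes, with medians of 0.11 and -0.01.

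The number of calls depended on the 2 libraries that stood apart. Without them, 46 members were tested. Then 28 rose and 6 fell in dnTGFB against WT (22.3% and 25.1% of all genes), 32 rose and 6 fell in WT secretin against WT (19.9% and 20.6%), 8 rose and 25 fell in dnTGFB secretin against dnTGFB (23.1% and 23.5%), and 21 rose and 7 fell in dnTGFB secretin against WT (18.9% and 19.2%). The 6, 11, 11 and 4 members called in these comparisons with all libraries were also called without the 2 libraries, in the same direction. With the compared groups alone in the fit, no member was called in dnTGFB against WT (0% of all genes), with 7 members at an unadjusted p under 0.05 and 16 called by DESeq2 on all male libraries. The shares of all genes beside the 7 and the 16 are not given here, so neither number is read as a result about the members. Timp4 was then the 1 member called in dnTGFB secretin against dnTGFB (2.90% of all genes), so no other call given below for these 2 comparisons was made in that fit.

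**Figure D2:**
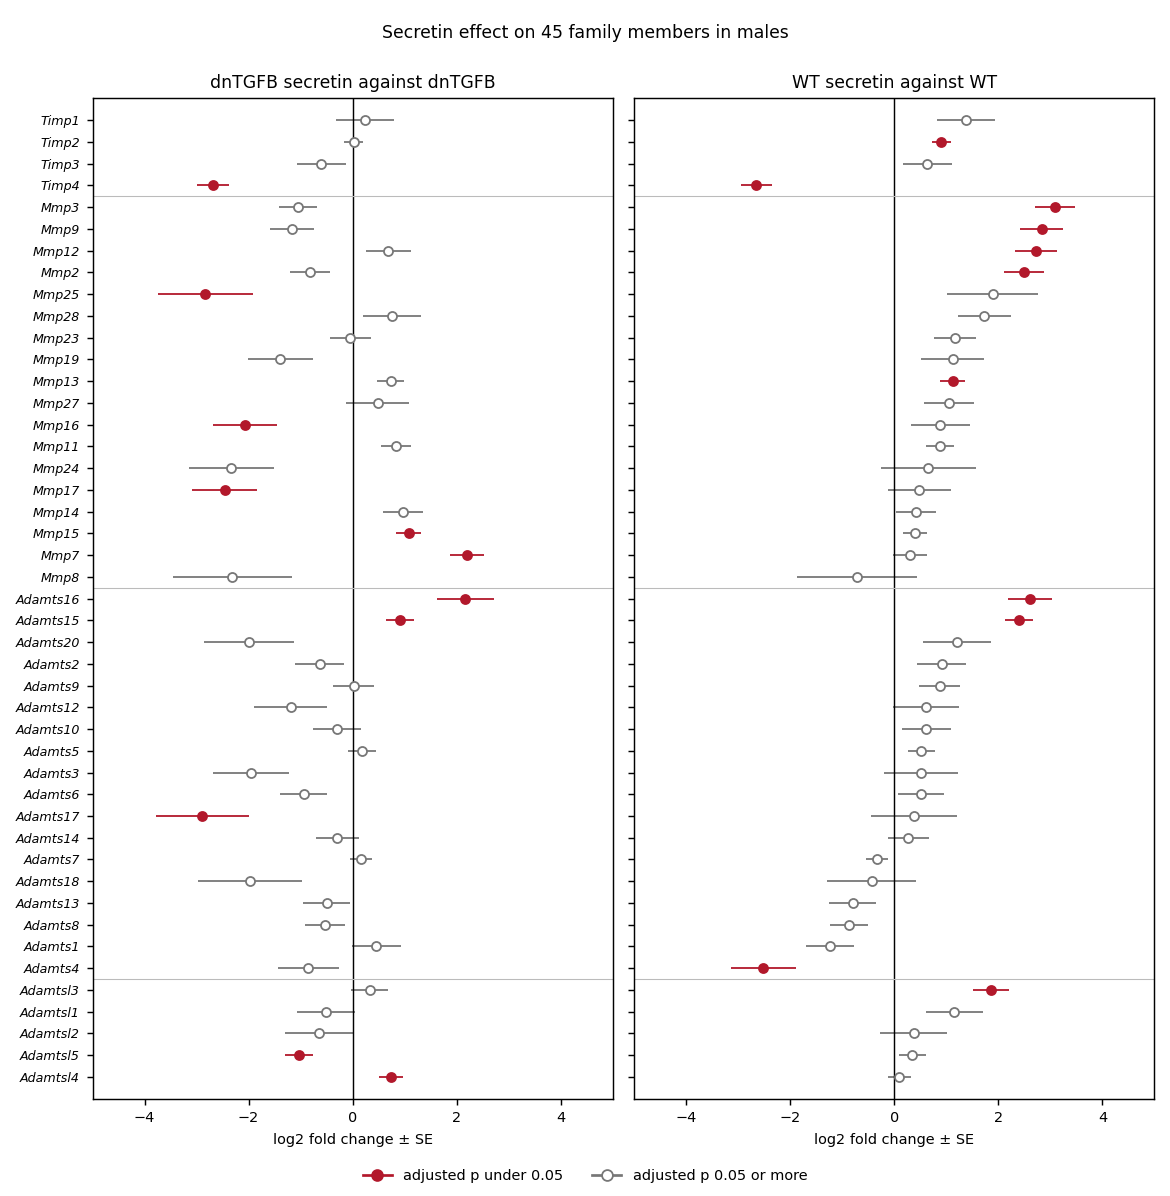
Log2 fold change with its approximate SE of the 45 tested members in males, for dnTGFB secretin against dnTGFB (left) and WT secretin against WT (right). Filled red points have an adjusted p under 0.05. Timp4 lies near -2.7 in both panels, whereas Mmp2, Mmp3 and Mmp9 lie above 2 in WT mice and below 0 in dnTGFB mice.

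Among the inhibitors, Timp4 fell with secretin in both genotypes. Timp4 (chr6:115241892-115252205, minus strand, GRCm38) encodes a secreted inhibitor best known from the heart. It stood at 1.23, 0.650 and 0.880 CPM in the 3 male dnTGFB secretin libraries and at 6.35, 4.91 and 7.05 CPM in the dnTGFB libraries. It stood at 1.82, 1.96 and 1.15 CPM in WT secretin libraries and at 9.95, 11.3 and 10.1 CPM in WT libraries. Every secretin library lay below every untreated library of both genotypes. The log2 change was -2.69 ± 0.31 in dnTGFB mice (approximate SE, adjusted p = 0.000452) and -2.66 ± 0.30 in WT mice (adjusted p = 0.000895), and -3.49 ± 0.31 for dnTGFB secretin against WT (adjusted p = 0.000124). Each of these 3 calls held in all 12 fits that left out 1 library, and without the 2 libraries that stood apart those of secretin against its own genotype were -2.59 and -2.69. The difference between the effects in the 2 genotypes was -0.03 ± 0.37 (adjusted p = 0.967), which does not show that they were equal. Timp4 was also lower in dnTGFB than in WT libraries without overlap, by a log2 difference of -0.81 ± 0.29 that did not pass (adjusted p = 0.0784). This difference was -0.94 and passed without the 2 libraries (adjusted p = 0.0108).

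Heart muscle markers were uneven between male libraries. All 10 were at 1 CPM or more in every male group, and their sum was 717.2 to 767.9 CPM in dnTGFB secretin, 372.5 to 13620 CPM in dnTGFB, 34.4 to 857.4 CPM in WT secretin and 722.2 to 1029 CPM in WT libraries. The upper end in dnTGFB was library 3, and the other 2 dnTGFB libraries lay below all dnTGFB secretin libraries. In WT secretin, library 1 lay at 857.4 CPM, within the range of WT libraries, and libraries 2 and 3 lay below it, at 34.4 and 40.3 CPM. Timp4 lies inside Syn2 on the opposite strand, and 1.5% of its exon bases are shared with Syn2 exons. Syn2 stood at 18.2 to 19.1 CPM in dnTGFB secretin, 34.4 to 252.6 CPM in dnTGFB, 8.83 to 11.7 CPM in WT secretin and 8.40 to 10.8 CPM in WT libraries. Syn2 was thus lower in dnTGFB secretin than in dnTGFB libraries without overlap, the direction of Timp4, and the WT groups overlapped. The part of heart muscle RNA and of Syn2 reads in the Timp4 result was not tested.

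Of the other 3 inhibitors, Timp2, which blocks most matrixins and also takes part in the activation of the Mmp2 proenzyme by Mmp14, rose in WT mice with secretin. Its levels were 265.2, 267 and 271 CPM in WT secretin libraries and 157.5, 131 and 141.5 CPM in WT libraries, a log2 change of 0.90 ± 0.18 (adjusted p = 0.0155). The groups did not overlap, and the call held in 7 of 12 fits without 1 library, with an adjusted p of up to 0.0965. In dnTGFB mice Timp2 stood at 161 to 166 CPM with secretin and 119 to 183 CPM without, and these ranges overlapped. The secretin effect differed between genotypes by -0.88 ± 0.25 (adjusted p = 0.0407), a call that held in 1 of 12 such fits.

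Timp3, a matrix-bound inhibitor that also blocks Adamts4 and Adamts5, stood at 94.9, 91.9 and 99.9 CPM in dnTGFB secretin and at 199.3, 199.1 and 31.1 CPM in dnTGFB libraries. Its levels were 263, 266 and 272 CPM in WT secretin and 178, 169.1 and 171 CPM in WT libraries. WT secretin exceeded WT in all libraries, but the log2 change of 0.63 ± 0.47 did not pass (adjusted p = 0.501). The same change was 0.65, with an adjusted p of 2.69e-11, in the fit that dropped WT library 1 and dnTGFB library 3. In that fit Timp3 was lower in dnTGFB secretin than in dnTGFB libraries by a log2 change of -1.05 (adjusted p = 3.2e-15) and lower than in WT libraries by -0.83 (adjusted p = 3.91e-13). The secretin effect in dnTGFB minus that in WT mice was then -1.70 (adjusted p = 1.75e-16). Timp3 shares 21.3% of its exon bases with the opposite-strand gene Syn3, which stood under 5 CPM in every male library, and reads of the 2 genes cannot be told apart there.

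Timp1, an inducible inhibitor of wounds and scars, stood at 22.6, 22.2 and 20.1 CPM in dnTGFB secretin and at 26.3, 22.0 and 2.94 CPM in dnTGFB libraries. It stood at 21.1, 17.2 and 22.0 CPM in WT secretin and at 14.1, 3.49 and 5.64 CPM in WT libraries. Both secretin groups lay above all WT libraries, whereas dnTGFB overlapped WT through library 3. None of these passed: the log2 changes were 1.49 ± 0.56 for dnTGFB secretin against WT (adjusted p = 0.172), 1.25 ± 0.57 for dnTGFB against WT (adjusted p = 0.150) and 1.38 ± 0.56 for WT secretin against WT (adjusted p = 0.187). Once WT library 1 and dnTGFB library 3 were left out, they were 2.24, 2.39 and 2.13, with adjusted p-values of 2.05e-10, 2.64e-10 and 3.76e-10.

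**Figure D3:**
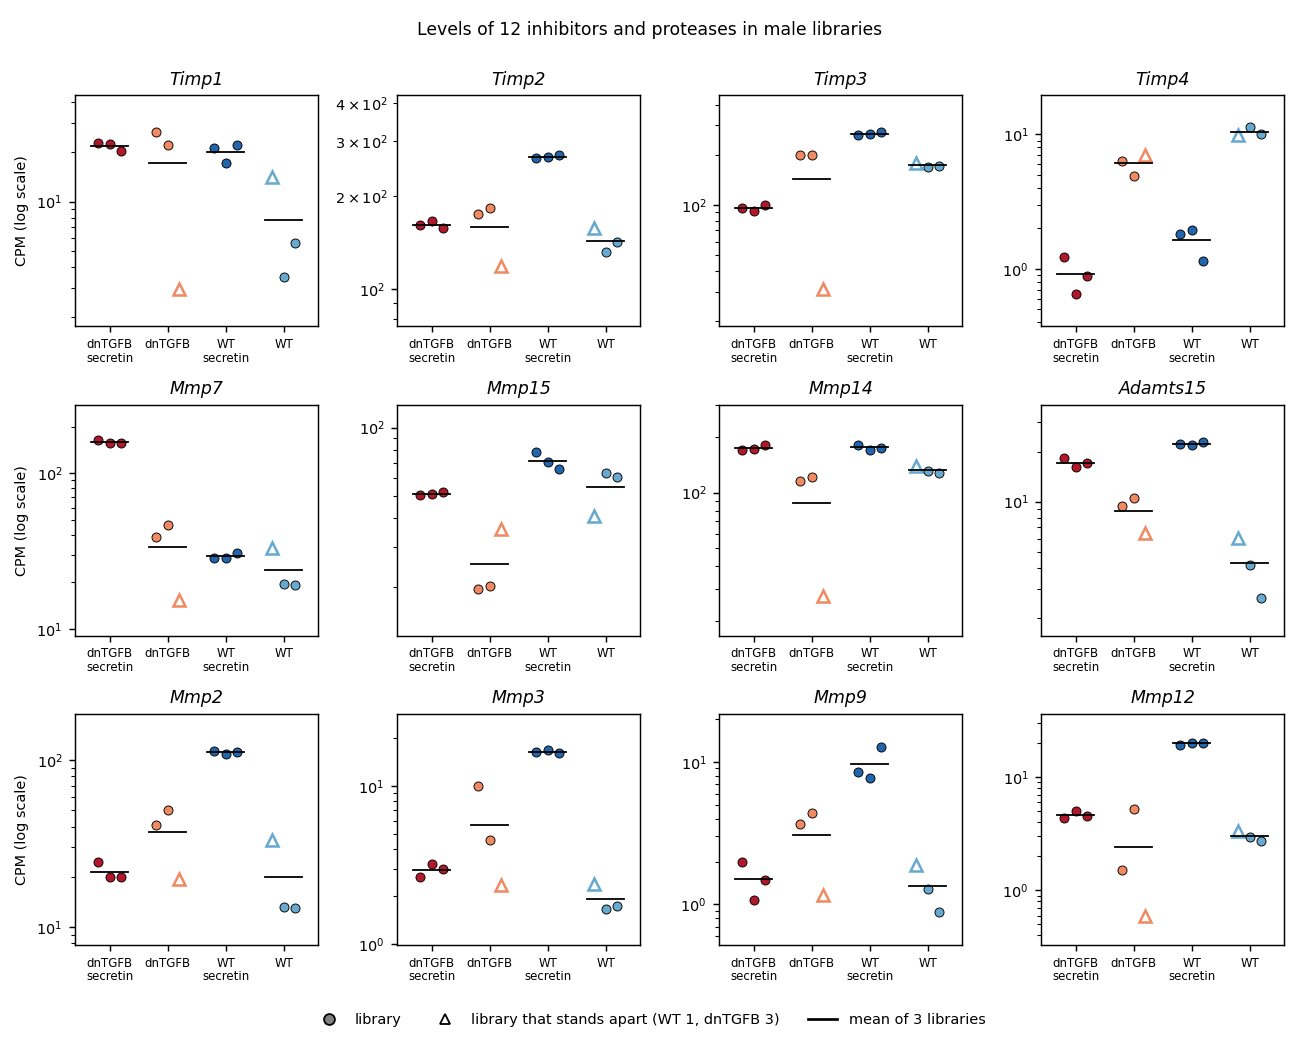
CPM on a log scale of 12 inhibitors and proteases in each male library, with the mean of each group as a line. Open triangles mark WT library 1 and dnTGFB library 3. The Timp4 points of both secretin groups lie under 2 CPM, the Mmp7 points of dnTGFB secretin lie above 150 CPM, and the Mmp2 points of WT secretin lie above 100 CPM.

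Of the secreted proteases, the gelatinases Mmp2 and Mmp9, which digest denatured collagen and basement membrane, rose with secretin in WT mice. Mmp2 (chr8:92827291-92853420) stood at 113, 109.5 and 113 CPM in WT secretin and at 33.4, 13.2 and 13.1 CPM in WT libraries, a log2 change of 2.49 ± 0.39 (adjusted p = 0.00527). Mmp9 stood at 8.45, 7.70 and 12.7 CPM in WT secretin and at 1.88, 1.28 and 0.890 CPM in WT libraries, a change of 2.83 ± 0.42 (adjusted p = 0.00369). For both genes every WT secretin library lay above every WT library, and both calls held in all 12 fits without 1 library.

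In dnTGFB mice neither gelatinase was called with secretin when all libraries were used, and both were called lower without the 2 libraries that stood apart. Mmp2 stood at 24.4, 20.1 and 20.0 CPM with secretin and at 41.0, 50.5 and 19.4 CPM without it. Mmp9 stood at 1.99, 1.08 and 1.48 CPM with secretin and at 3.69, 4.35 and 1.17 CPM without it, a log2 change of -1.17 ± 0.42 (adjusted p = 0.0679). The dnTGFB ranges overlapped for both genes through dnTGFB library 3, which was the lowest of its group. With that library and WT library 1 left out, the changes were -1.09 for Mmp2 (adjusted p = 1.53e-09) and -1.40 for Mmp9 (adjusted p = 0.000873). The secretin effect in dnTGFB mice minus that in WT mice was -3.31 ± 0.54 for Mmp2 (adjusted p = 0.00425) and -4.00 ± 0.59 for Mmp9 (adjusted p = 0.00254). Both differences held in all 12 fits without 1 library and were -4.18 and -4.54 without the 2 libraries that stood apart. Against WT, untreated dnTGFB libraries differed by 0.93 ± 0.38 for Mmp2 (adjusted p = 0.113) and 1.35 ± 0.43 for Mmp9 (adjusted p = 0.0534), with overlap in both cases. Both differences passed without the 2 libraries, at 1.80 (adjusted p = 2.53e-12) and 1.90 (adjusted p = 0.000166).

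The stromelysin Mmp3, which cuts proteoglycans and activates other proenzymes, moved in the same way. Mmp3 (chr9:7445822-7455975) stood at 16.4, 16.9 and 16.1 CPM in WT secretin and at 2.39, 1.66 and 1.73 CPM in WT libraries, a log2 change of 3.09 ± 0.38 (adjusted p = 0.00122). It stood at 2.65, 3.22 and 2.97 CPM in dnTGFB secretin and at 10.04, 4.54 and 2.35 CPM in dnTGFB libraries. WT secretin exceeded WT without overlap, while the dnTGFB groups overlapped. The dnTGFB groups did differ once the 2 libraries were left out, by -1.28 (adjusted p = 0.000171). The difference between the secretin effects was -4.14 ± 0.52 (adjusted p = 0.00111), and it held in all 12 fits without 1 library. Mmp3 was also called higher in dnTGFB than in WT, by 1.66 ± 0.38 (adjusted p = 0.0140), with overlap, and this call was lost without WT library 2 or WT library 3 (adjusted p of up to 0.0674).

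Mmp12, the elastase of macrophages, stood at 19.4, 20.1 and 20.2 CPM in WT secretin and at 3.33, 2.98 and 2.74 CPM in WT libraries, a log2 change of 2.72 ± 0.41 (adjusted p = 0.00424) that held in all 12 fits without 1 library. In dnTGFB mice it stood at 4.38, 5.03 and 4.55 CPM with secretin and at 1.5, 5.19 and 0.590 CPM without it. The WT groups did not overlap and the dnTGFB groups did. The difference between the secretin effects was -2.03 ± 0.58 (adjusted p = 0.0395), and it held in 3 of 12 such fits. Mmp13, a collagenase, stood at 8.61, 8.24 and 8.56 CPM in WT secretin and at 5.35, 3.19 and 3.14 CPM in WT libraries, a change of 1.12 ± 0.24 (adjusted p = 0.0207) that held in 7 of 12 fits, with an adjusted p of up to 0.103.

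Markers of other cell types also differed between the WT groups, in both directions. The 12 stellate cell and fibroblast markers, all at 1 CPM or more, summed to 2948 to 2993 CPM in WT secretin and 1075 to 1858 CPM in WT libraries. The 6 mesothelial markers, none at 0, summed to 118.5 to 129.7 CPM in WT secretin and 46.8 to 55.9 CPM in WT libraries. The 11 macrophage markers, all at 1 CPM or more, summed to 829.1 to 851.4 CPM in WT secretin and 469.5 to 638.6 CPM in WT libraries. All 3 sums were without overlap and higher with secretin. Lower with secretin, also without overlap, were the endothelial, platelet and B cell sums. These stood at 4907 to 4990, 16.7 to 23.4 and 121.1 to 129.4 CPM in WT secretin libraries. In WT libraries they stood at 6167 to 7644, 180.7 to 312.6 and 209.3 to 384.9 CPM. The macrophage sum was also higher in dnTGFB secretin, at 848.3 to 880.5 CPM, than in dnTGFB libraries, at 153.9 to 284.4 CPM, while Mmp12 overlapped there. Fewer cells of a type and less RNA per cell cannot be told apart in bulk RNA, and the part of these cell types in the results was not tested.

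Mmp7, the matrilysin of epithelia, rose in dnTGFB mice with secretin. Mmp7 (chr9:7692090-7699585) stood at 164, 157 and 156 CPM in dnTGFB secretin and at 38.9, 46.5 and 15.3 CPM in dnTGFB libraries. It stood at 28.4, 28.6 and 30.9 CPM in WT secretin and at 33.1, 19.3 and 19.1 CPM in WT libraries. The 3 dnTGFB secretin libraries lay above the other 9 male libraries, whose groups overlapped in part. The log2 change was 2.20 ± 0.33 against dnTGFB (adjusted p = 0.00220) and 2.74 ± 0.34 against WT (adjusted p = 0.00113), and both calls held in all 12 fits without 1 library. The changes of 0.54 ± 0.32 for dnTGFB against WT (adjusted p = 0.257) and 0.30 ± 0.32 for WT secretin against WT (adjusted p = 0.659) did not pass. Both passed without the 2 libraries that stood apart, at 1.16 (adjusted p = 1.03e-10) and 0.61 (adjusted p = 7.45e-07). The secretin effect was larger in dnTGFB than in WT mice by 1.90 ± 0.45 (adjusted p = 0.0208), a difference that held in 6 of 12 fits, with an adjusted p of up to 0.0579. It was 1.29 without the 2 libraries (adjusted p = 5.34e-10).

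Biliary markers also differed between these groups. The 12 markers summed to 5296 to 5411 CPM in dnTGFB secretin, 676.6 to 1096 CPM in dnTGFB, 2534 to 2593 CPM in WT secretin and 2243 to 3559 CPM in WT libraries. The dnTGFB secretin libraries were thus highest in both Mmp7 and the biliary sum. The 2 measures were not in step in untreated mice, where dnTGFB libraries 1 and 2 held less of the biliary sum than all WT libraries and more Mmp7. The part of biliary content in the Mmp7 result was not tested. Mmp7 shares 11.5% of its exon bases with an opposite-strand gene, so reads of both cannot be told apart there.

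**Figure D4:**
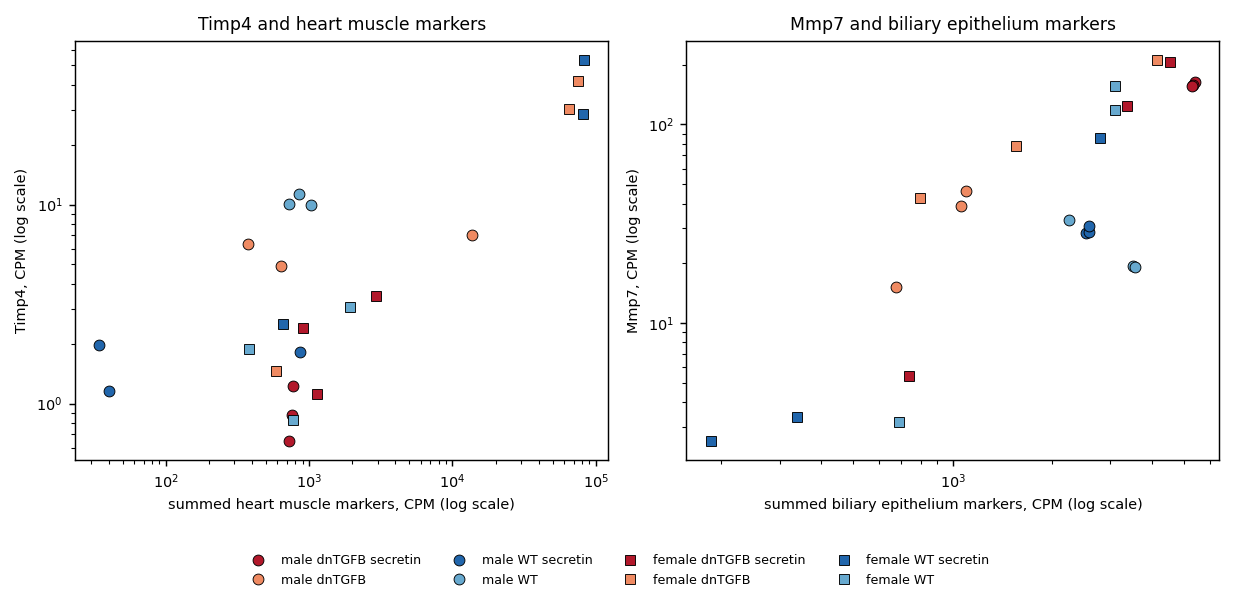
Timp4 against summed heart muscle markers (left) and Mmp7 against summed biliary markers (right) in the 24 libraries, both axes in CPM on a log scale. Circles are male and squares female libraries. Timp4 exceeds 28 CPM in the 4 female libraries with 65020 CPM or more of heart markers, and every library with Mmp7 above 150 CPM holds 3098 CPM or more of biliary markers.

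The transmembrane proteases Mmp14 and Mmp15 are held at the cell surface, where Mmp14 cuts fibrillar collagen and activates the Mmp2 proenzyme. Mmp15 stood at 50.4, 51.1 and 52.4 CPM in dnTGFB secretin and at 19.6, 20.1 and 35.8 CPM in dnTGFB libraries. It stood at 78.4, 70.6 and 66.1 CPM in WT secretin and at 41.0, 63.2 and 60.4 CPM in WT libraries. All dnTGFB libraries lay below all libraries of the other groups. Mmp15 fell in dnTGFB against WT by a log2 change of -1.17 ± 0.24 (adjusted p = 0.00881) and rose in dnTGFB secretin against dnTGFB by 1.08 ± 0.24 (adjusted p = 0.0134). Both calls held in all 12 fits without 1 library.

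Mmp14 stood at 169.6, 174 and 181 CPM in dnTGFB secretin and at 115, 122 and 27.6 CPM in dnTGFB libraries. It stood at 182, 170.5 and 176 CPM in WT secretin and at 140.4, 131 and 127.5 CPM in WT libraries. Both secretin groups exceeded their untreated counterparts without overlap. The change in dnTGFB mice, 0.97 ± 0.39, did not pass (adjusted p = 0.0933), and it was 0.56 once the 2 libraries that stood apart were dropped, with an adjusted p of 3.38e-09.

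The other membrane-bound members were low, and dnTGFB library 3 set the size of several of their changes. Mmp17, a lipid-anchored enzyme, stood at 9.61, 11.8 and 11.9 CPM in dnTGFB secretin and at 27.7, 18.3 and 146 CPM in dnTGFB libraries. It stood at 7.97, 6.38 and 5.56 CPM in WT secretin and at 5.82, 4.26 and 4.27 CPM in WT libraries. Each dnTGFB library exceeded the other 9 male libraries. The log2 change was 3.68 ± 0.66 in dnTGFB against WT (adjusted p = 0.00588), and 2.42 without the 2 libraries that stood apart. For dnTGFB secretin against dnTGFB it was -2.46 ± 0.62 (adjusted p = 0.0208), and -1.03 without them. Mmp24, a transmembrane enzyme known from neurons, stood at 1.96, 1.02 and 11.2 CPM in dnTGFB and at 0.280, 0.130 and 0.200 CPM in WT libraries, a change of 4.24 ± 0.92 (adjusted p = 0.0116) and 3.11 without the 2 libraries. The groups did not overlap for either gene, and the Mmp24 call was lost without WT library 2 or WT library 3 (adjusted p of up to 0.0552). Mmp24 shares 13.6% of its exon bases with an opposite-strand gene.

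The 10 neuron markers moved with both genes. All were at 1 CPM or more, and they summed to 299.9 to 356.5 CPM in dnTGFB secretin, 685.7 to 5113 CPM in dnTGFB, 147.3 to 187.5 CPM in WT secretin and 120.2 to 141.3 CPM in WT libraries. These groups did not overlap, and the order of the sums was that of the Mmp17 group means. The part of neuronal RNA in the result was not tested. In dnTGFB secretin against dnTGFB, Mmp16 fell by 2.07 on the log2 scale (adjusted p = 0.0363) and Mmp25 by 2.83 (adjusted p = 0.0482), at group means under 2 CPM, and these calls held in 4 and 2 of 12 fits without 1 library.

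Mmp8, the collagenase of neutrophils, was uneven within groups and passed no male test with all libraries. It stood at 0.760, 0.610 and 1.2 CPM in dnTGFB secretin and at 5.54, 5.84 and 0 CPM in dnTGFB libraries. It stood at 0.830, 0.540 and 0.520 CPM in WT secretin and at 3.05, 0.0400 and 0.120 CPM in WT libraries. The 3 libraries above 2 CPM, dnTGFB 1 and 2 and WT 1, were the 3 male libraries with the highest neutrophil marker sums, 459.4, 434.8 and 285.4 CPM, against 19.4 to 112.8 CPM in the other 9. Leaving out WT library 1 and dnTGFB library 3, Mmp8 was called in every male comparison. It was lower in dnTGFB secretin than in dnTGFB by a log2 change of -2.71 (adjusted p = 1.66e-05). Against WT libraries 2 and 3, with 1 and 3 reads, it was higher in dnTGFB secretin (adjusted p = 0.00043), dnTGFB (adjusted p = 7.82e-08) and WT secretin (adjusted p = 0.00219), and the size of these changes rests on those few reads. With all libraries, the changes against WT had been -0.29 in dnTGFB secretin and -0.72 in WT secretin, the opposite direction.

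Among the ADAMTS enzymes, Adamts15 rose in all 4 male comparisons. Adamts15, a protease of versican and aggrecan, stood at 18.2, 16.1 and 17.0 CPM in dnTGFB secretin and at 9.46, 10.5 and 6.46 CPM in dnTGFB libraries. It stood at 22.2, 21.9 and 22.9 CPM in WT secretin and at 6.01, 4.17 and 2.62 CPM in WT libraries. The 4 groups did not overlap with each other. The log2 change was 2.01 ± 0.27 for dnTGFB secretin against WT (adjusted p = 0.00161), 0.91 ± 0.27 for dnTGFB secretin against dnTGFB (adjusted p = 0.0342), 1.10 ± 0.27 for dnTGFB against WT (adjusted p = 0.0206) and 2.39 ± 0.27 for WT secretin against WT (adjusted p = 0.000960). Both comparisons of a secretin group with WT held in all 12 fits without 1 library. The comparison with dnTGFB and that of dnTGFB with WT held in 5 and 9 of 12, with adjusted p-values of up to 0.102 and 0.0808. The secretin effect was smaller in dnTGFB than in WT mice by a log2 difference of -1.48 ± 0.37 (adjusted p = 0.0252), which held in 5 of 12 such fits.

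Adamts16, an enzyme known from kidney and gonad, rose with secretin in both genotypes at a low level. It stood at 2.39, 1.45 and 1.77 CPM in dnTGFB secretin and at 0.460, 0.460 and 0 CPM in dnTGFB libraries, a log2 change of 2.17 ± 0.55 (adjusted p = 0.0208). It stood at 5.24, 5.30 and 7.14 CPM in WT secretin and at 0.520, 0.810 and 1.53 CPM in WT libraries, a change of 2.61 ± 0.43 (adjusted p = 0.00655). Neither pair of groups overlapped. The WT call held in all 12 fits without 1 library, and the dnTGFB call was lost without any of the 3 dnTGFB secretin libraries (adjusted p of up to 0.0758).

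Of the aggrecan proteases Adamts1 and Adamts4, Adamts4 fell in WT mice with secretin. Adamts4 stood at 11.5, 11.4 and 14.3 CPM in WT secretin and at 103.6, 56.0 and 53.9 CPM in WT libraries, a log2 change of -2.52 ± 0.62 (adjusted p = 0.0366) that held in 3 of 12 fits without 1 library, with an adjusted p of up to 0.153. Adamts1 stood at 178, 174 and 171 CPM in WT secretin and at 423, 404 and 407 CPM in WT libraries. Neither gene overlapped between these groups, but the change of -1.24 ± 0.47 for Adamts1 did not pass (adjusted p = 0.159). It was -1.22 once the 2 libraries that stood apart were dropped, with an adjusted p of 8.92e-19. In dnTGFB mice Adamts1 stood at 379, 373 and 381 CPM with secretin and at 378, 377 and 63.4 CPM without it, with overlap, and Adamts4 at 46.8 to 49.0 CPM with secretin and 9.98 to 130.2 CPM without it.

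The remaining ADAMTS and ADAMTS-like members showed few calls. Adamts17, which was called lower in dnTGFB secretin than in dnTGFB (log2 change -2.89 ± 0.90, adjusted p = 0.0406), stood under 1 CPM in all male libraries. Adamtsl3, a matrix protein without a protease domain, stood at 2.59, 2.06 and 2.34 CPM in dnTGFB secretin, 1.5, 1.95 and 2.35 CPM in dnTGFB, 2.02, 2.94 and 3.20 CPM in WT secretin, and 1.03, 0.720 and 0.480 CPM in WT libraries. Every library of the first 3 groups exceeded every WT library. Against WT, its log2 change was 1.64 ± 0.34 in dnTGFB secretin (adjusted p = 0.0218), 1.31 ± 0.38 in dnTGFB (adjusted p = 0.0373) and 1.86 ± 0.35 in WT secretin (adjusted p = 0.0112). These calls held in 7, 4 and 8 of 12 fits without 1 library, with adjusted p-values of up to 0.106, 0.131 and 0.0577. All 3 comparisons share the WT libraries. In dnTGFB secretin against dnTGFB, Adamtsl5 fell by 1.03 (adjusted p = 0.0219) and Adamtsl4, a fibrillin-binding protein, rose by 0.74 (adjusted p = 0.0426), in 8 and 2 of 12 such fits. The procollagen N-proteinases Adamts2, Adamts3 and Adamts14 and the von Willebrand factor protease Adamts13 passed no male test with all libraries.

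Without WT library 1 and dnTGFB library 3, each of these 4 passed in at least 1 comparison. Adamts2 stood at 38.8, 40.4 and 40.7 CPM in dnTGFB secretin, 80.1, 87.4 and 13.5 CPM in dnTGFB, 70.2, 68.7 and 64.4 CPM in WT secretin, and 52.7, 27.7 and 27.9 CPM in WT libraries. In that fit its log2 change was -1.06 in dnTGFB secretin against dnTGFB (adjusted p = 1.2e-11), 1.59 in dnTGFB against WT (adjusted p = 7.83e-14) and 1.28 in WT secretin against WT (adjusted p = 7.14e-13). WT library 1 and dnTGFB library 3 were the highest and the lowest of their groups. In dnTGFB against WT, Adamts14 rose by 1.67 (adjusted p = 3.61e-07) and Adamts3, at 5 CPM or less in all male libraries, by 3.32 (adjusted p = 0.000305). Adamts13 fell in WT secretin against WT by 0.77 (adjusted p = 0.00224). Adamts4 was then lower in dnTGFB secretin than in dnTGFB by -1.34 (adjusted p = 2.52e-12), a change of -0.85 that had not passed with all libraries. Further members gained calls in that fit and are not described one by one. Among them, in dnTGFB against WT, Adamtsl2 changed by 2.01 (adjusted p = 6.29e-16), Adamtsl1 by 2.11 (adjusted p = 2.22e-10) and Mmp19 by 1.71 (adjusted p = 3.85e-07).

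In a test of the difference itself, the male secretin effect differed between dnTGFB and WT mice for 11 of the 45 members. It was higher in dnTGFB mice for Mmp7, and lower for Mmp2, Mmp3, Mmp9, Mmp12, Mmp16, Mmp17, Mmp25, Adamts15, Adamtsl5 and Timp2. Of all genes, 8.10% had a higher and 7.51% a lower secretin effect in dnTGFB mice, and the median difference was -1.20 on the log2 scale over the members and -0.07 over all genes. Without the 2 libraries that stood apart, 7 of 46 members had a higher and 28 a lower effect, against 25.1% and 23.8% of all genes.

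Genes around these proteases were counted in 3 lists. Of 36 substrates tested (collagens, proteoglycans and glycoproteins), 12 rose and none fell in WT secretin against WT, against 3.55% and 2.67% of all genes, led by the fibrillar collagen genes Col1a1 with a log2 change of 2.47 ± 0.50 (adjusted p = 0.0162) and Col1a2 with 2.27 ± 0.51 (adjusted p = 0.0255). Both are also on the fibroblast list above. In dnTGFB secretin against dnTGFB, 3 substrates rose and 5 fell, against 10.1% and 12.4% of all genes. The secretin effect was higher in dnTGFB than in WT mice for 1 substrate and lower for 13, against 8.10% and 7.51% of all genes. Of the 3 that rose in dnTGFB mice, Spp1, which encodes osteopontin and is also on the biliary list, changed by 2.71 ± 0.26 (adjusted p = 0.000148). Of 31 activators and cell-surface partners, 3 rose and 1 fell in WT secretin against WT, against 3.55% and 2.67% of all genes. In dnTGFB secretin against dnTGFB, 5 rose and 5 fell, against 10.1% and 12.4%. Among them Plaur, the urokinase receptor, fell in WT mice with secretin by -2.07 ± 0.37 (adjusted p = 0.00921) and rose in dnTGFB mice with secretin by 1.64 ± 0.36 (adjusted p = 0.0136). Among 16 inhibitors other than Timps, Reck, a membrane-anchored inhibitor of matrixins, was the 1 gene that rose in WT secretin against WT, by 1.04 ± 0.22 (adjusted p = 0.0178). None of the 16 fell there. In dnTGFB against WT, 3 rose and 0 fell, against 8.55% and 8.46% of all genes. In dnTGFB secretin against dnTGFB, 0 rose and 4 fell, against 10.1% and 12.4%. The secretin effect was lower in dnTGFB than in WT mice for 6 and higher for 0, against 7.51% and 8.10%.

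In females, no member passed in the 4 comparisons of groups, and no other gene did among 19882 tested (0% called). At an unadjusted p under 0.05 there were 10 members in dnTGFB against WT and 14 in WT secretin against WT. There were 7 in dnTGFB secretin against dnTGFB and 0 in dnTGFB secretin against WT. Over all 19882 genes these numbers were 3859, 5263, 3626 and 100. DESeq2 called 6, 9, 1 and 0 members, against 4.84%, 15.0%, 2.42% and 0% of all genes. Timp4 stood at 3.47, 1.12 and 2.39 CPM in dnTGFB secretin, 30.3, 41.9 and 1.45 CPM in dnTGFB, 2.50, 53.4 and 28.7 CPM in WT secretin, and 1.88, 3.04 and 0.830 CPM in WT libraries. The 4 libraries above 28 CPM were those rich in heart muscle transcripts. The other 8 libraries lay between 0.830 and 3.47 CPM, with the groups overlapping.

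In all, 15 of the 50 members were above, and 4 below, the range of the other 8 female libraries in these 4 libraries, a description of libraries chosen by their heart muscle markers and not a test. The share of all genes outside that range is not given here. These counts are therefore not read as a trait of the members. Adamtsl5 stood at 90.3 to 116 CPM against 4.82 to 9.83 CPM, and Mmp15 at 157 to 215 CPM against 24.5 to 66.2 CPM. Mmp2 stood at 63.0 to 81.9 CPM against 17.4 to 51.4 CPM. Mmp14 was lower there, at 34.8 to 64.8 CPM against 135 to 179 CPM, as was Adamts13, at 0.630 to 3.10 CPM against 5.82 to 17.0 CPM. For each of these genes the female WT secretin and dnTGFB groups therefore held both kinds of library.

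Mmp7 varied widely between female libraries. It stood at 5.44, 207 and 124 CPM in female dnTGFB secretin, 77.5, 42.6 and 212 CPM in dnTGFB, 85.6, 2.56 and 3.36 CPM in WT secretin, and 156, 3.20 and 119 CPM in WT libraries. All groups overlapped. The 4 libraries with the least Mmp7, 2.56 to 5.44 CPM, were the 4 female libraries with the lowest sums of biliary markers, 185.6 to 737.1 CPM. The next in both orders was dnTGFB library 2, with 42.6 CPM of Mmp7 and a sum of 798.3 CPM. Of the 4 libraries with the least Mmp7, WT library 2 and dnTGFB secretin library 1 held 4136 and 4200 CPM of squamous epithelium markers. They also held 683.8 and 720.1 CPM of placenta markers. Other female libraries held at most 229.4 and 41.5 CPM of these markers. WT secretin libraries 2 and 3 were rich in heart muscle transcripts. The part of such RNA in the Mmp7 levels was not tested.

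**Figure D5:**
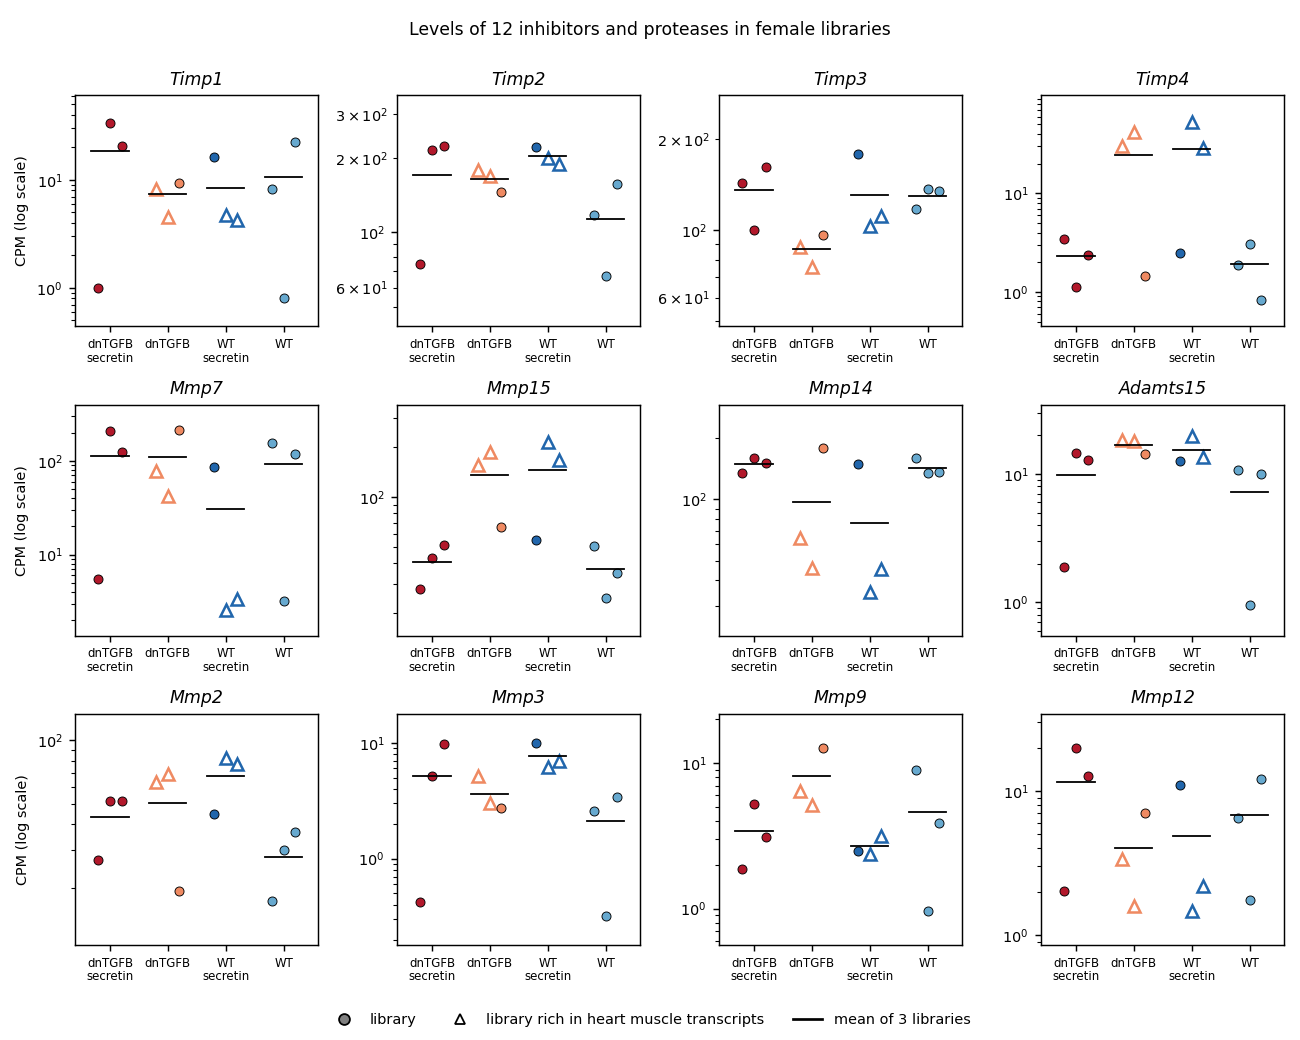
CPM on a log scale of 12 inhibitors and proteases in each female library, with the mean of each group as a line. Open triangles mark the 4 libraries rich in heart muscle transcripts. They lie above the other 8 libraries for Timp4, Mmp15 and Mmp2, and below them for Mmp14.

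The interaction of secretin and genotype in females was called for 8 of 47 members, 1 higher and 7 lower, against 18.0% of all genes. They were Mmp19 (higher), Timp4, Mmp11, Mmp15, Adamts17, Adamts19, Adamtsl4 and Adamtsl5 (lower). The heart-rich libraries sit in untreated dnTGFB and in WT secretin, so the interaction sets them against the other 2 groups. Leaving out these 4 libraries leaves 1 library in WT secretin and 1 in dnTGFB. That fit therefore cannot decide whether the calls hold, and only a size is given. The Timp4 difference was then 0.34, against -7.32 ± 1.76 (adjusted p = 0.0408) with all libraries. Adamts19 had too few counts in that fit.

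Effects were compared between the sexes on all 24 libraries. The effect of dnTGFB differed between males and females for 6 of 47 members, against 6.86% of all genes, and the effect of secretin in dnTGFB mice for 5, against 7.75%. The effect of secretin in WT mice differed for none, against 0% of all genes. At an unadjusted p under 0.05 there were 9 members and 4537 of all 20222 genes, and DESeq2 called 7 members (11.2% of all genes). For Mmp15 the dnTGFB effect was lower in males by a log2 difference of -3.09 ± 0.61 (adjusted p = 0.00377). For Mmp17 the dnTGFB effect was higher in males by 4.45 ± 0.82 (adjusted p = 0.00275). The Timp4 difference was -4.56 ± 1.28 (adjusted p = 0.0380). Without the 2 male libraries that stood apart and the 4 female heart-rich libraries, these differences were -2.47, 3.33 and -0.56. That fit keeps 1 female dnTGFB library, so it gives sizes only and cannot decide whether the differences hold.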

How the data were processed

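RNA of pooled intrahepatic cholangiocytes was sequenced in 24 libraries, from poly(A) RNA per the labels' protocols. The authors deposited 1 table of whole-number read counts per gene for each library. The aligner and counting tool, and whether strand was used, are not stated in these sources. The gene coordinates fit GENCODE M21 (GRCm38), from which symbols and biotypes were taken: 44737 of 48970 shared gene identifiers have the same start and end. Members and gene lists were chosen with earlier results of these data known.

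Each sex, with 12 libraries, had its own model in edgeR 4.0.16 (quasi-likelihood, robust, R 4.3.3) with TMM scaling and the group-wise expression filter, and all 24 only for differences between the sexes. Calls needed an adjusted p (Benjamini-Hochberg) under 0.05 over all genes tested, with no fold threshold. The SE is approximate, worked back from the F statistic. Levels are CPM on TMM-scaled totals within a sex and are not on 1 scale across sexes. Pairs of libraries were compared at 1400000 counts each by a chi-square per gene, where 1 is sampling noise. On simulated counts for male dnTGFB against WT, 119 of 194 genes changed by a log2 of 2 were recovered with 4 false calls. The simulated libraries were drawn around 1 mean profile, with none that stood apart. The number of false calls therefore does not carry over to the measured libraries.

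Alternatives were DESeq2 1.42.0, its size factors within edgeR, library totals alone, no low-count filter, the replicate number as a block, the compared groups alone and each library left out in turn. Leaving out the male libraries that stood apart, the female libraries rich in heart muscle transcripts and the near-identical female libraries was added after the data were seen. Set for description in each comparison were the 4 Timps, Mmp2, Mmp7, Mmp9, Mmp12, Mmp14, Adamts1 and up to 4 called members with the largest change at 1 CPM or more. The text does not give each of them in each comparison. Of the genes set by name, only Timp4, Mmp2, Mmp7 and Mmp14 have female library levels or their ranges by kind of library. Some male comparisons of these genes are also left out. Other members named were chosen after their values were seen. From the gene lists, up to 2 called genes per direction at 10 CPM or more were eligible.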

Additional observations from a re-analysis of the deposited data

Results flagged for a closer look

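Differences between the effects in 2 groups were called by an interaction term in edgeR's quasi-likelihood test (adjusted p under 0.05), and they are listed here as log2 differences. In males, the secretin effect in dnTGFB mice minus that in WT mice was -4.72 for Mmp25, -4.14 for Mmp3, -4.00 for Mmp9, -3.31 for Mmp2, -2.94 for Mmp16 and -2.94 for Mmp17. It was -2.03 for Mmp12, -1.48 for Adamts15, -1.38 for Adamtsl5 and -0.88 for Timp2, and 1.90 for Mmp7. Of these 11, Mmp2, Mmp3 and Mmp9 held in all 12 fits that left out 1 library.

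In females, the same difference was -12.76 for Adamts19, -7.32 for Timp4, -7.01 for Adamtsl5, -4.68 for Adamts17, -3.73 for Mmp15, -2.85 for Adamtsl4, -2.45 for Mmp11 and 2.53 for Mmp19. Adamts19 stood at 0.170 CPM or less in all libraries but the 4 rich in heart muscle transcripts, so its fitted value is no measure of size. Each of the 8 held in 2 of 12 fits without 1 library.

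The dnTGFB effect in males minus that in females was 5.73 for Mmp24, 4.45 for Mmp17, -2.37 for Adamtsl4, -2.58 for Mmp11, -3.09 for Mmp15 and -4.56 for Timp4. The secretin effect in dnTGFB mice, males minus females, was 2.86 for Mmp15, 2.13 for Adamtsl4, 1.77 for Mmp11, -3.38 for Mmp17 and -4.01 for Mmp24. Mmp17 and Mmp24 had their highest levels in male dnTGFB library 3, at 146 and 11.2 CPM.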

How the results depend on the processing

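Counts of called members moved with several choices, and the cause was not tested. The share of all genes called under each choice is given above only in part. These counts are therefore not read as results about the members. For male dnTGFB against WT (6 called), 16 were called with DESeq2, 10 with library totals alone, 0 with the compared groups alone and 34 without the libraries that stood apart. For male WT secretin against WT (11), the compared groups alone gave 21 and leaving out those libraries 38. For male dnTGFB secretin against dnTGFB (11), DESeq2 gave 19, library totals 19, no low-count filter 7, the compared groups alone 1 and leaving out those libraries 33. For male dnTGFB secretin against WT (4), the compared groups alone gave 12 and leaving out those libraries 28. For the male interaction (11), DESeq2 gave 18 and leaving out those libraries 35. In females, DESeq2 gave 6 for dnTGFB against WT, 9 for WT secretin against WT and 1 for dnTGFB secretin against dnTGFB, against 0. The female interaction (8) gave 0 with library totals and with the replicate block. Leaving out the heart-rich or the near-identical libraries left 1 library in at least 1 female group, so no counts are given for those fits. Between the sexes, the WT secretin effect (0) gave 7 with DESeq2. The dnTGFB secretin effect (5) gave 0 with library totals, 3 with no filter and 3 with the replicate block.

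Without 1 library the counts ranged from 2 to 28 for male dnTGFB against WT, 7 to 28 for WT secretin against WT, 3 to 25 for dnTGFB secretin against dnTGFB, 3 to 12 for dnTGFB secretin against WT and 3 to 27 for the male interaction, each highest without dnTGFB library 3. In females they ranged from 0 to 12 for WT secretin against WT and 0 to 14 for the interaction, highest without WT secretin library 1, and stayed at 0 in the other comparisons. Between the sexes they ranged from 4 to 9, 0 to 12 and 0 to 6. The shares of all genes called in these fits are not given here, so these ranges are not read as results about the members either. The Timp4 interaction turned to 0.34 in females without the heart-rich libraries. In males, from -0.03, it was 0.55 with library totals, 0.06 with no filter, 0.10 without the libraries that stood apart, and -0.27 to 0.18 without 1 library.

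Equal replicate numbers did not pair the libraries (correlations of deviations from -0.82 to 0.53), so the replicate block is given only here. Low levels limit what can be seen for the 14 male and 12 female members with medians under 1 CPM, and male dnTGFB library 3, with 1429218 counts, resolves them least.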
